A study of Rattus norvegicus with 9 samples.

Results

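Amino acid transporters carry amino acids across the cell membrane, and the set described here holds the genes named for 7 such families. It was chosen by name: every probe set of the array whose single gene symbol begins with Slc1a, Slc3a, Slc6a, Slc7a, Slc36a, Slc38a or Slc43a, with 1 Slc6a gene left out. The set holds 70 of the 31042 probe sets other than controls, and 52 of the 14217 named genes. A probe set is a group of short probes on the array that measures a transcript. Of the 70, 34 probe sets of 29 genes were bright enough to be tested, among 18625 tested in all. The name catches a few members that are not carriers of the cell membrane: Slc7a6os is only a neighbour of Slc7a6, and Slc38a9 is known as a sensor of the lysosome. It also catches 8 probe sets of 6 Slc6 genes that carry other substrates, such as creatine, and 3 of these probe sets were tested.

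The tissue was gastrocnemius, a calf muscle, of male Wistar rats of 250 g. There were 3 groups of 3 rats, with 1 array for each rat, and all rats carried an osmotic pump for 7 days. The vehicle group received propylene glycol, the dexamethasone group 0.7 mg/kg/day of this synthetic glucocorticoid, and the combination group the same dose with testosterone. Its testosterone dose stands as 28 mg/kg/day in the labels of the samples but as 20 mg/kg/day in the design text; neither could be preferred. No group received testosterone alone. The testes are not said to have been removed, and the testosterone that the rats made themselves is not given. Markers of skeletal muscle fibres were all measured (7 of 7), at mean normalized log2 levels of 14.54 to 14.70 on all 9 arrays.

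Muscle holds much of the body's protein and free glutamine, and glucocorticoids are known to promote its breakdown and the release of amino acids. Transport works through several kinds of carrier. Light chains of the Slc7 family exchange one amino acid for another and reach the membrane bound to a heavy chain, Slc3a2 or Slc3a1. Slc38 members bring in glutamine and alanine with sodium, Slc43 members let leucine and other large neutral amino acids pass down their gradient, and Slc1, Slc6 and Slc36 members draw on sodium or proton gradients.

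Array quality differed in a way that touches several results. By the deposited scaling and by the signals of poly-A spikes (control RNAs put into each sample), the arrays form 3 technical batches. Batch A holds vehicle replicates 1 and 3 and replicate 1 of the dexamethasone and combination groups, batch B holds replicate 2 of each group, and batch C holds replicate 3 of the dexamethasone and combination groups. Median deposited intensities ran from 25.8 to 132.1. The ratio of 3' to 5' signal of Gapdh, which increases as RNA is degraded, was 4.94 and 6.22 in batch C and 1.06 to 1.17 on the other arrays. Batch C holds no vehicle array. A difference within a batch compares 1 array with 1 or 2, has no error, and uses the same arrays as the main fit. Among the 34 tested transporter probe sets, the mean of batch C stood above that of the other arrays for 17 and below it for 17, and 3 differed by more than 1 on the log2 scale (8.82%, against 8.09% of all probe sets tested). Bulk muscle RNA cannot tell fewer cells of a type from less RNA per cell.

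Promoter sequences are shown to let 4 carriers be compared. In each of these genes, every tested probe set was higher on all dexamethasone arrays than on all vehicle arrays, at an unadjusted p under 0.05. Slc7a6, Slc38a4 and Slc43a1 had only 1 probe set each. The Slc38a1 probe set 1372921_at stood at an unadjusted p of 0.0488 (limma). The genes were chosen after their values were seen. Each sequence is the 250 bases before the annotated start, read 5′ to 3′ on the gene's strand, from RefSeq on the build GRCr8. Capitals mark matches to 3 short motifs searched on both strands: TGATGNAA (C/EBP-ATF response element), AGAACA (part of the glucocorticoid response element, TGTTCT on the other strand) and CACGTG (E-box). The windows are Slc38a1 at chr7:129681402-129681651 on the minus strand, Slc38a4 at chr7:130082170-130082419 on the minus strand, Slc43a1 at chr3:90327072-90327321 on the plus strand and Slc7a6 at chr19:50993256-50993505 on the plus strand.
Slc38a1: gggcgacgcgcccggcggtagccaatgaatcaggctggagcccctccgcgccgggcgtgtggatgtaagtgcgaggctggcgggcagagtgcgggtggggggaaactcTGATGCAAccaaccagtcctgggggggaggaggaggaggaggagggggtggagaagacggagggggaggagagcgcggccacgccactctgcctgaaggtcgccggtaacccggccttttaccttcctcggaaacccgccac
Slc38a4: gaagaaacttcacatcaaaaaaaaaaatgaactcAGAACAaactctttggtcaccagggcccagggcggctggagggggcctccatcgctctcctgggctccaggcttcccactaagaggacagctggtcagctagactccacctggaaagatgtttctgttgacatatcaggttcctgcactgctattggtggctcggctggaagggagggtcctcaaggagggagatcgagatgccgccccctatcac
Slc43a1: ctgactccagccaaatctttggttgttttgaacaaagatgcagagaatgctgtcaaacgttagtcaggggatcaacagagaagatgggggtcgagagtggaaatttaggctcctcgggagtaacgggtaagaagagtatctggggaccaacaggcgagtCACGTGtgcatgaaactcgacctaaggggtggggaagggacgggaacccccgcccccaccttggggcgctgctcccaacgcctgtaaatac
Slc7a6: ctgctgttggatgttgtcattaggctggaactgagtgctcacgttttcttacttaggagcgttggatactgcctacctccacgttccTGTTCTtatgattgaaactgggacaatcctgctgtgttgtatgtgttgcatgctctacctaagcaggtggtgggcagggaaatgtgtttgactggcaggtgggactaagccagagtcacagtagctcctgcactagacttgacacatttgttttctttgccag
Each window holds a single match, and the 4 matches fall on 3 different motifs. In Slc38a1, TGATGCAA lies 142 to 135 bases before the start. In Slc38a4, AGAACA lies 216 to 211 bases before it, and in Slc7a6 the same motif lies on the other strand, 163 to 158 bases before it. In Slc43a1, CACGTG lies 91 to 86 bases before the start. The Slc7a6 window lies inside the gene's annotated span, so it precedes an internal start. A promoter of 300 bases was given for 40 of the 52 genes. In those, TGATGNAA was found in 3 (7.5%, against 3.98% of 33469 promoters), AGAACA in 5 (12.5%, against 20.7%) and CACGTG in 7 (17.5%, against 6.42%). A match is a description of these letters, not of a bound site.

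With dexamethasone, the 4 carriers that were higher on every array, on every tested probe set and at an unadjusted p under 0.05 were the light chain gene Slc7a6, 2 sodium-coupled genes (Slc38a1 and Slc38a4) and the facilitative gene Slc43a1. Differences over the set ran from -1.69 (Slc3a1) to 1.54 (Slc7a6). None of the 34 tested probe sets passed an adjusted p of 0.05 (limma with Benjamini-Hochberg adjustment over all probe sets tested), and the lowest adjusted p was 0.0612, for Slc7a6. Of all 18625 probe sets, 196 passed (1.05%), 106 higher (0.569%) and 90 lower (0.483%). At an unadjusted p under 0.05, 6 transporter probe sets of 5 genes were higher, where 7.88% of all probe sets were, and 1 was lower, where 7.57% were. The latter belongs to the creatine carrier Slc6a8. Arrays of the 2 groups did not overlap for 7 probe sets that were higher and 3 that were lower, against 12.5% and 10.4% of all. The 7 include Slc7a6os, which is no carrier, and both tested Slc38a1 probe sets, and the 3 include both tested Slc6a8 probe sets. The median difference was 0.06 (0.01 over all probe sets), and its size without sign 0.32 (0.28 over all). Unless another scale is named, levels and differences are normalized log2(intensity + 16) values, and each ± is a standard error of the limma fit with 3 arrays in each group.

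**Figure D1:**
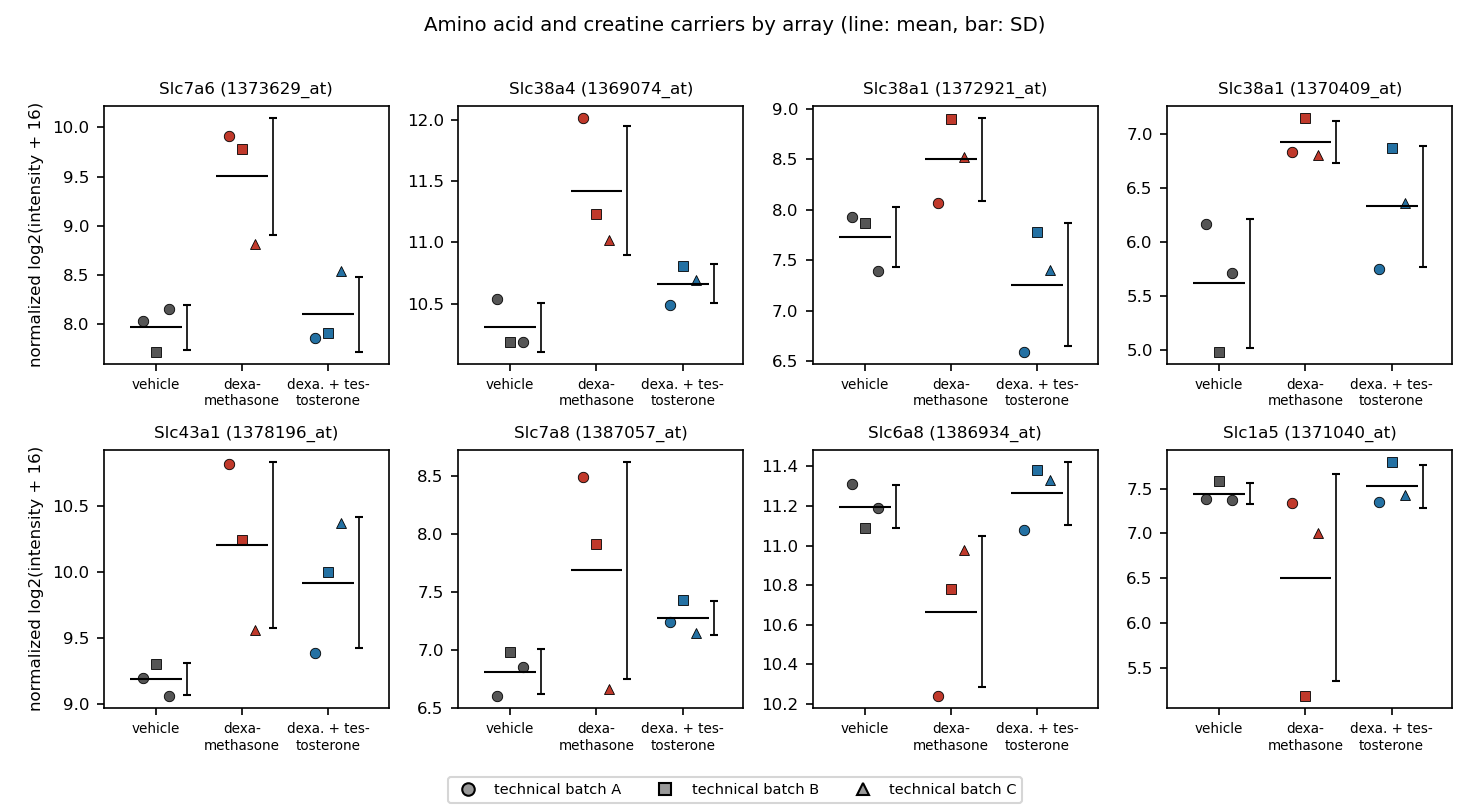
Normalized log2(intensity + 16) of 8 carrier probe sets (panels) on each of the 9 arrays, by group; horizontal lines are group means, bars are SD (n = 3) and marker shapes give the technical batch. Slc7a6 stands at 8.82 to 9.91 on the dexamethasone arrays and at 7.72 to 8.54 on all others, while the low mean of Slc1a5 with dexamethasone comes from 1 array at 5.19.

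Of 9 light chain probe sets, 4 were tested. Slc7a6 encodes a light chain that exchanges cationic amino acids such as arginine for neutral ones such as glutamine and leucine, with sodium. Its level (probe set 1373629_at) was 8.03, 7.72 and 8.16 on the vehicle arrays, 9.91, 9.78 and 8.82 with dexamethasone, and 7.86, 7.91 and 8.54 with both hormones. All dexamethasone arrays lay above all others. The difference from vehicle was 1.54 ± 0.32 (2.9-fold, 95% confidence interval 0.81 to 2.26, adjusted p = 0.0612). Batch A alone gave 1.81 and batch B alone 2.07, and the value was 1.63 with the batch as a block (adjusted p = 0.0825). Without dexamethasone replicate 3, the lowest of its group and a batch C array, it was 1.85 and passed the test (adjusted p = 0.0184), whereas without dexamethasone replicate 1 it was 1.33 (adjusted p = 0.211).

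Slc7a8 encodes a light chain that exchanges large and small neutral amino acids. Its level was 6.60, 6.98 and 6.85 with vehicle, 8.49, 7.91 and 6.66 with dexamethasone, and 7.24, 7.43 and 7.14 with both hormones. The third dexamethasone array lay among the vehicle arrays, and the difference of 0.87 ± 0.40 did not pass (adjusted p = 0.337). Without that array it was 1.36 (adjusted p = 0.0338), and without dexamethasone replicate 1 it was 0.47 (adjusted p = 0.66). Of the other tested light chains, Slc7a7 differed by 0.11 ± 0.24 and Slc7a10 by 0.01 ± 0.32. All 4 tested light chains were thus above 0, with a median of 0.49 (0.01 over all probe sets), but Slc7a7 and Slc7a10 by less than their standard errors. Slc7a5, the main exchanger of leucine and other large neutral amino acids, was too dim to be tested. It stood at 4.98, 6.75 and 5.98 with vehicle, 4.71, 5.57 and 4.32 with dexamethasone, and 6.03, 5.57 and 5.73 with both hormones, around the level of 5.75 that a mean had to reach. Slc7a11, which takes up cystine in exchange for glutamate, was also too dim, at 4.48 to 5.81 over the arrays.

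The heavy chains, which hold the light chains in the membrane, were both tested. Slc3a2, the partner of Slc7a5, Slc7a6 and Slc7a8, read 9.71, 10.19 and 9.51 with vehicle, 10.09, 10.35 and 9.81 with dexamethasone, and 10.10, 10.25 and 9.66 with both hormones. The groups overlapped (0.28 ± 0.25, 95% confidence interval -0.29 to 0.86, adjusted p = 0.646). Slc3a1, known as the partner of Slc7a9 in cystine uptake by the kidney, gave the widest spread of the set. Its probe set read 10.21, 11.41 and 10.41 with vehicle, 9.44, 10.86 and 6.65 with dexamethasone, and 10.84, 10.17 and 5.83 with both hormones. Both low values are batch C arrays, which had the high 3' to 5' ratios of Gapdh, and the mean of batch C minus that of the other arrays was -4.08. Only 19 of 18625 tested probe sets had a difference as low (0.102%). The dexamethasone difference of -1.69 ± 1.34 became -0.87 within batch A and -0.55 within batch B. In the GRCr8 annotation Slc3a1 overlaps its neighbour Prepl, whose own probe set stayed between 9.44 and 10.19 on all 9 arrays. The part of RNA quality in the Slc3a1 values was not tested.

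**Figure D2:**
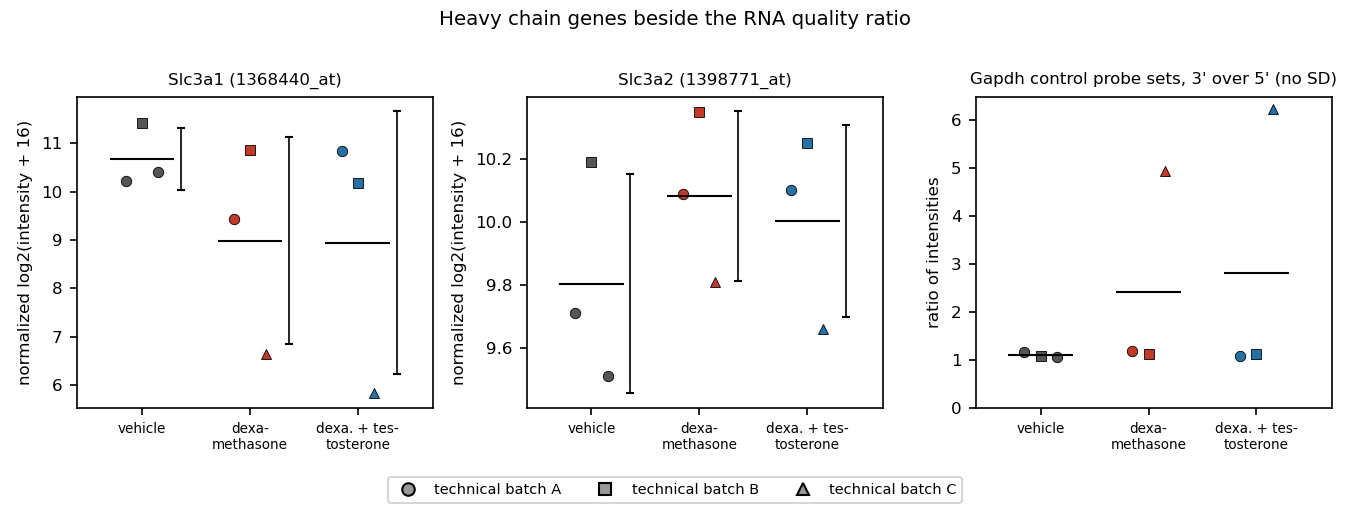
Normalized log2(intensity + 16) of Slc3a1 (left) and Slc3a2 (middle), and the 3' over 5' intensity ratio of the Gapdh control probe sets (right), on each array by group; lines are group means, bars (left and middle) are SD (n = 3), and shapes give the technical batch. The 2 arrays at 6.65 and 5.83 for Slc3a1 are those with Gapdh ratios of 4.94 and 6.22.

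Of the sodium-coupled Slc38 genes, 10 of 11 probe sets were tested. Slc38a4 and Slc38a1 both take up small neutral amino acids with sodium. For Slc38a4 (probe set 1369074_at) the arrays read 10.54, 10.19 and 10.19 with vehicle, 12.02, 11.23 and 11.02 with dexamethasone, and 10.49, 10.81 and 10.69 with both hormones. Every dexamethasone array was above every other array, by 1.11 ± 0.27 over vehicle (2.17-fold, 95% confidence interval 0.50 to 1.73, adjusted p = 0.0919). Batch A alone gave 1.66, batch B alone 1.03, and the value without dexamethasone replicate 1 was 0.81.

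Slc38a1 was read by 2 tested probe sets. The brighter, 1372921_at, stood at 7.93, 7.87 and 7.39 with vehicle, 8.07, 8.90 and 8.52 with dexamethasone, and 6.59, 7.78 and 7.40 with both hormones, a difference from vehicle of 0.77 ± 0.34 (adjusted p = 0.32). The dimmer, 1370409_at, stood at 6.16, 4.98 and 5.71, then 6.83, 7.15 and 6.80, then 5.75, 6.87 and 6.36, a difference of 1.31 ± 0.35 (adjusted p = 0.117). Both were higher on every dexamethasone array than on every vehicle array. They parted in the combination group, where the brighter lay below all dexamethasone arrays and the dimmer overlapped them. The remaining Slc38a1 probe set was too dim, at 4.16 to 4.59.

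Slc38a2, a sodium-coupled carrier known to be induced when amino acids are scarce, lies between Slc38a1 and Slc38a4 on chromosome 7 of GRCr8. Its arrays read 11.95, 11.84 and 12.16 with vehicle, 11.28, 12.02 and 11.91 with dexamethasone, and 11.35, 11.74 and 11.54 with both hormones. The dexamethasone difference was -0.25 ± 0.24 (95% confidence interval -0.78 to 0.28, adjusted p = 0.668). Slc38a3, a glutamine carrier, read 7.60, 6.62 and 7.39, then 7.38, 8.10 and 7.58, then 6.61, 8.25 and 7.32, with overlap throughout (0.48 ± 0.42). The lysosomal members Slc38a9 and Slc38a7 differed by 0.07 ± 0.30 and 0.13 ± 0.37. Of the 10 tested probe sets of the family, 8 were above 0 with dexamethasone and 2 below, with a median of 0.21 (0.01 over all probe sets). The 8 include both tested Slc38a1 probe sets, while Slc38a6, Slc38a7 and Slc38a9 were above 0 by less than their standard errors.

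Among facilitative carriers, Slc43a1, which passes leucine and other large neutral amino acids without sodium, on its probe set 1378196_at read 9.20, 9.30 and 9.06 with vehicle, 10.82, 10.24 and 9.56 with dexamethasone, and 9.39, 10.00 and 10.37 with both hormones. Both treated groups lay wholly above the vehicle arrays. The dexamethasone difference was 1.02 ± 0.35 (2.03-fold, 95% confidence interval 0.24 to 1.80, adjusted p = 0.197), and batches A and B alone gave 1.70 and 0.94. Its relative Slc43a2 showed no such separation, with 0.29 ± 0.25 on its brighter probe set and -0.14 ± 0.34 on the other.

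In the cationic branch, carriers of arginine and lysine that need no heavy chain, Slc7a1 was read by 2 tested probe sets. The differences from vehicle were 0.24 ± 0.36 and -0.18 ± 0.28. Slc7a2, another arginine carrier, was too dim to be tested, at 4.37 to 6.34 over the arrays.

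**Figure D3:**
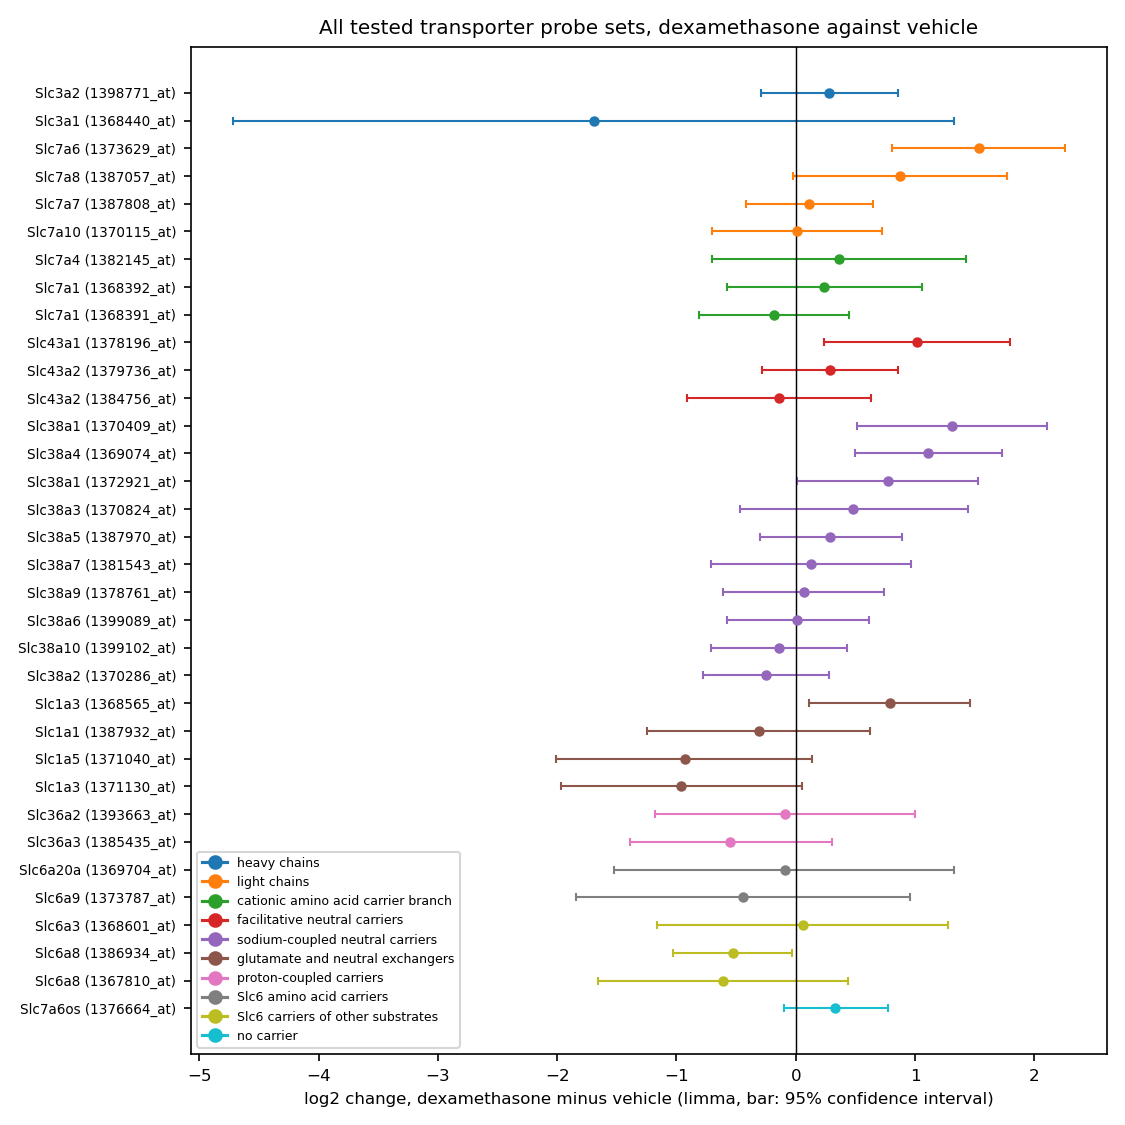
Difference between the dexamethasone and vehicle groups (log2 scale, dexamethasone minus vehicle) for all 34 tested probe sets, with 95% confidence intervals from the limma fit and colours for the kind of carrier. Slc7a6 has the highest value (1.54), and the interval of Slc3a1 is the widest, from -4.72 to 1.33.

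The Slc1 family holds the sodium-coupled glutamate carriers and the neutral exchangers. Slc1a5, which exchanges glutamine for other neutral amino acids, read 7.38, 7.58 and 7.37 with vehicle, 7.34, 5.19 and 7.00 with dexamethasone, and 7.35, 7.80 and 7.43 with both hormones. The difference of -0.93 ± 0.48 (adjusted p = 0.394) rested on the second dexamethasone array: it was -0.27 without that array, -0.04 within batch A and -2.40 within batch B. For the glutamate carrier Slc1a3 the 2 tested probe sets had opposite signs. The probe set 1368565_at read 6.13, 6.53 and 5.47 with vehicle and 6.80, 6.61 and 7.06 with dexamethasone (0.79 ± 0.30, adjusted p = 0.249). The probe set 1371130_at read 6.74, 6.67 and 6.27, then 6.40, 4.58 and 5.81 (-0.96 ± 0.45, adjusted p = 0.349). They give no single direction for this gene. Slc1a4, a neutral exchanger related to Slc1a5, was too dim, at 4.65 to 6.40.

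Slc6 was mostly below the level needed for a test, with 5 of 24 probe sets tested (20.8%). Slc6a8, which takes up creatine and not an amino acid, was among the tested. Its probe set 1386934_at read 11.31, 11.09 and 11.19 with vehicle, 10.24, 10.78 and 10.98 with dexamethasone, and 11.08, 11.38 and 11.33 with both hormones. Every dexamethasone array was below every other array, by 0.53 on average against vehicle (-0.53 ± 0.22, adjusted p = 0.294). Its other probe set, 1367810_at, was also lower on every dexamethasone array than on every vehicle array (-0.61 ± 0.47), but its lowest value, 7.36, was the batch C array of the combination group. The glycine carrier Slc6a9 and the proline carrier Slc6a20a differed by -0.44 ± 0.62 and -0.09 ± 0.63. Proton-coupled carriers of small amino acids gave 2 tested probe sets, Slc36a2 at -0.09 ± 0.48 and Slc36a3 at -0.55 ± 0.38. Slc36a1 was too dim, at 4.53 to 4.93.

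When testosterone was given with dexamethasone, the arrays for Slc7a6, Slc38a4 and the brighter Slc38a1 probe set all lay below those with dexamethasone alone. This comparison shares the dexamethasone arrays with the previous one. None of the 34 probe sets passed; the lowest adjusted p was 0.134, and 21 of all probe sets did pass (0.113%). At an unadjusted p under 0.05, 3 transporter probe sets were lower (5.36% of all were) and 1 was higher (5.59% of all were). The latter belongs to the creatine carrier Slc6a8. Arrays did not overlap for 4 that were lower (7.35% of all) and 2 that were higher (7.24% of all). The median difference of the 34 was -0.15 and that of all probe sets 0.00, with 23 below 0 and 11 above.

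Slc7a6 differed by -1.40 ± 0.32 between the combination and dexamethasone alone (2.64-fold lower, 95% confidence interval -2.12 to -0.68, adjusted p = 0.134). The difference was -2.05 within batch A, -1.87 within batch B and -0.28 within batch C. Without dexamethasone replicate 3, the lowest of its group, it was -1.72 and passed the test (adjusted p = 0.0467). Over 19 alternatives the difference ran from -1.89 to -1.19 and the adjusted p from 0.0467 to 0.366. It passed in 2 of them, both of which left out that array. The brighter Slc38a1 probe set differed by -1.24 ± 0.34 (adjusted p = 0.209). Within the 3 batches, each with 1 array against 1, it gave -1.48, -1.12 and -1.12. The dimmer Slc38a1 probe set differed by -0.60 (adjusted p = 0.605). For Slc38a4 the difference was -0.76 ± 0.27 (adjusted p = 0.345), with -1.53, -0.42 and -0.33 within batches A, B and C.

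Other carriers gave no common direction. Slc6a8 on its probe set 1386934_at was higher in the combination by 0.60 ± 0.22 (adjusted p = 0.367), with 0.84, 0.60 and 0.35 within the batches. Its other tested probe set, 1367810_at, differed by 0.01 ± 0.47, with 0.65, 0.35 and -0.97 within batches A, B and C. Slc1a5 was higher by 1.02 ± 0.48 (adjusted p = 0.486), and by 0.36 without the second dexamethasone array. The tested Slc1a3 probe sets again had opposite signs. On 1368565_at all combination arrays lay below all dexamethasone arrays (-0.66 ± 0.30, adjusted p = 0.471), and on 1371130_at the arrays overlapped (0.76 ± 0.45, adjusted p = 0.607). Slc43a1 differed by -0.29 ± 0.35, and its sign differed between batches, with -1.44 in A, -0.24 in B and 0.81 in C. Slc7a8 likewise gave -1.26, -0.48 and 0.48.

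**Figure D4:**
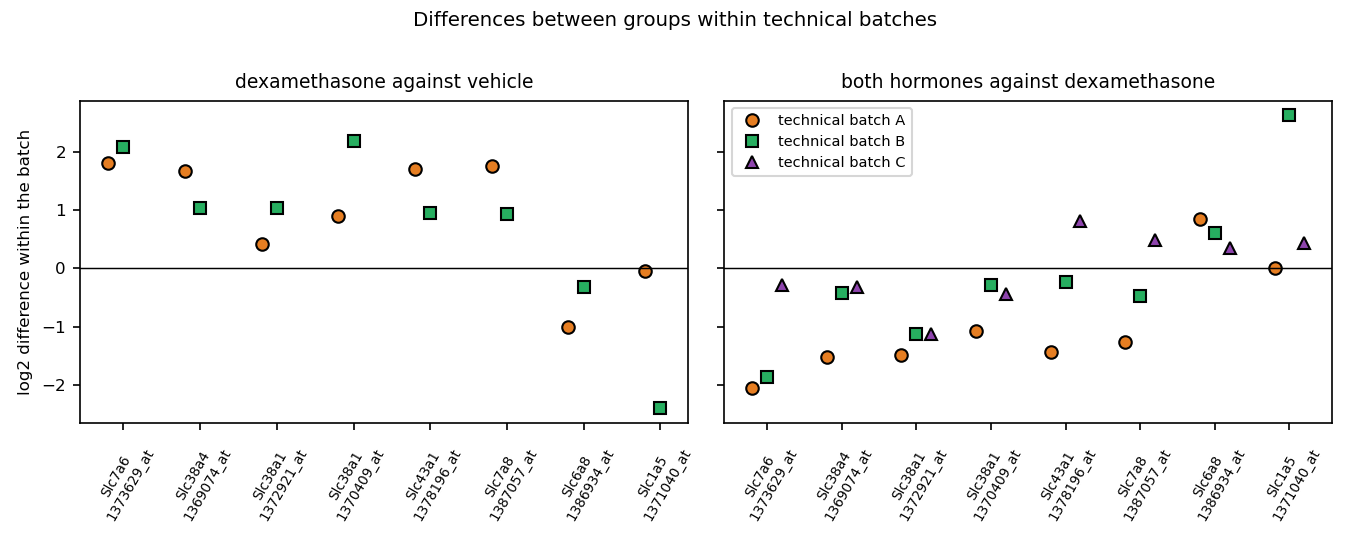
Difference on the log2 scale between groups within each technical batch for 8 carrier probe sets: dexamethasone minus vehicle (left; batches A and B, since C has no vehicle array) and combination minus dexamethasone (right). Each point compares 1 array with 1, or with 2 for the vehicle arrays of batch A. For Slc7a6 the values on the left are 1.81 and 2.07 and those on the right -2.05, -1.87 and -0.28.

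Between the combination and vehicle, differences ran from -1.73 (Slc3a1) to 0.73 (Slc43a1), with 19 probe sets above 0, 15 below and a median of 0.09 (0.02 over all). No transporter probe set passed (lowest adjusted p = 0.815), and 0 of all probe sets did (0%). At an unadjusted p under 0.05, 0 were higher (3.16% of all were) and 1 was lower (2.95% of all were), all by limma. The latter was the Slc7a1 probe set 1368391_at, which read 6.55, 6.81 and 6.72 with vehicle and 5.57, 6.08 and 6.47 with both hormones (-0.66 ± 0.28, adjusted p = 0.815). The other Slc7a1 probe set differed by -0.31. Arrays did not overlap for 2 probe sets that were higher, Slc43a1 and Slc7a8 (7.53% of all), and 2 that were lower, Slc38a2 and the Slc7a1 probe set named above (5.79% of all). Slc43a1 differed by 0.73 ± 0.35 (adjusted p = 0.83), Slc7a8 by 0.46 and Slc38a2 by -0.44 (adjusted p = 0.841). Slc7a6 differed by 0.14 (adjusted p = 0.955), Slc38a4 by 0.36 (adjusted p = 0.889) and the Slc6a8 probe set 1386934_at by 0.07. The other tested Slc6a8 probe set, 1367810_at, differed by -0.60 ± 0.47. The tested Slc38a1 probe sets had opposite signs, with -0.47 ± 0.34 on the brighter (adjusted p = 0.88) and 0.71 ± 0.35 on the dimmer (adjusted p = 0.83). They give no single direction for Slc38a1 against vehicle.

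**Figure D5:**
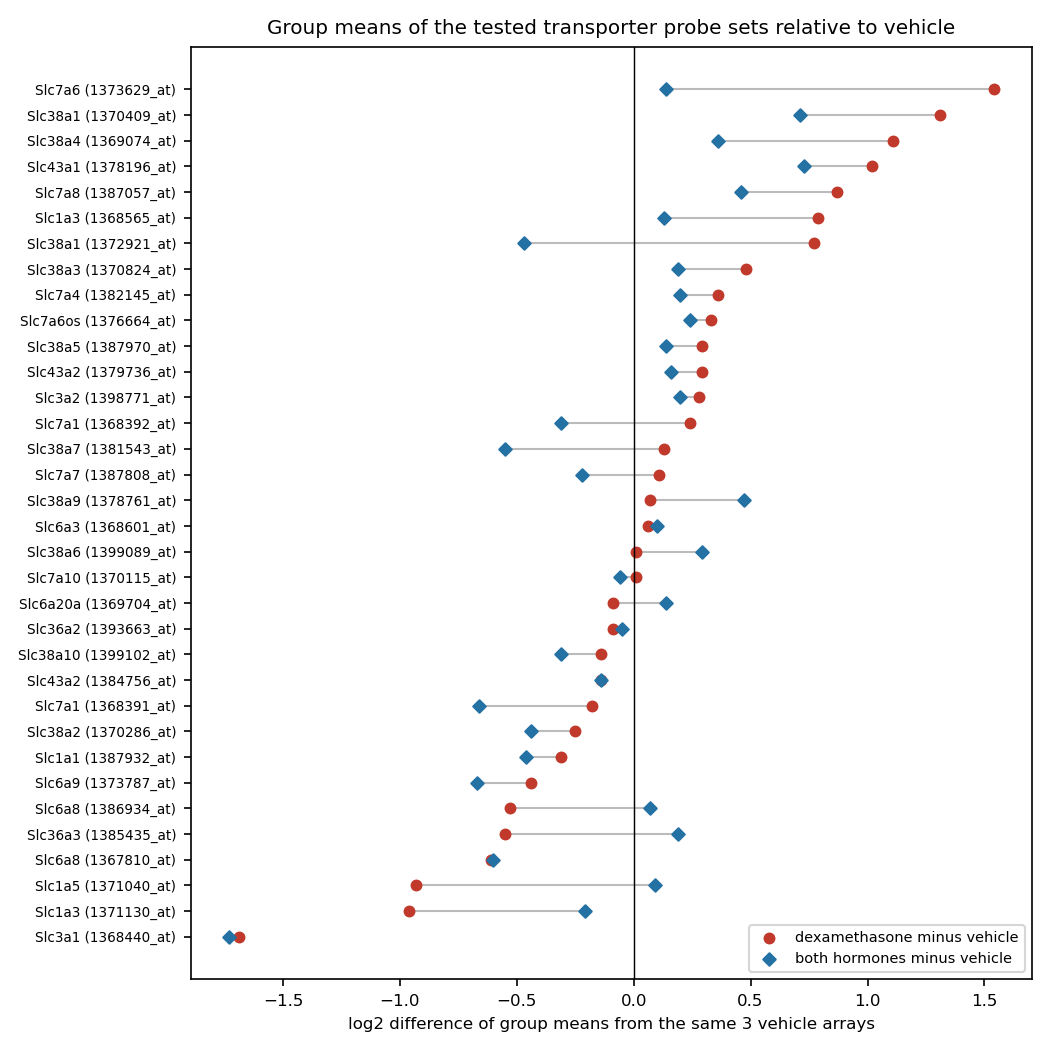
Means of the dexamethasone group (circles) and the combination group (diamonds) relative to the same 3 vehicle arrays, on the log2 scale, for the 34 tested probe sets, joined for each probe set. Slc7a6 stands at 1.54 with dexamethasone and 0.14 with both hormones, whereas Slc43a1 stands at 1.02 and 0.73.

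Genes that act on or respond to amino acid supply were counted from lists fixed for this report, with adjusted p over all probe sets. Of 23 tested genes of the amino acid shortage response through the kinase GCN2 and the factor ATF4, 2 rose with dexamethasone and 0 fell, with a median of 0.08; of all probe sets, 0.569% rose and 0.483% fell. Chac1, which breaks down glutathione, read 9.04, 8.67 and 8.23 with vehicle, 12.58, 11.83 and 12.03 with dexamethasone, and 9.58, 10.83 and 11.52 with both hormones (3.49 ± 0.46, adjusted p = 0.0206). Cebpb, a transcription factor, read 9.03, 9.10 and 8.97, then 11.22, 11.42 and 11.18, then 9.15, 10.74 and 10.74 (2.24 ± 0.38, adjusted p = 0.0365). In both genes the dexamethasone arrays and the combination arrays lay above all vehicle arrays.

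Of 28 tested genes that relay amino acids to mTORC1, the growth kinase complex of the lysosome, 1 rose and 0 fell (median 0.12), where 0.569% of all probe sets rose. It was Sesn1, a leucine-responsive inhibitor of that pathway, at 9.83, 9.48 and 9.60, then 10.71, 11.05 and 10.70, then 9.92, 9.78 and 9.87 (1.18 ± 0.19, adjusted p = 0.0324). A second Sesn1 probe set read 7.69, 8.49 and 7.85, then 8.25, 9.20 and 4.28, then 8.19, 7.46 and 5.51. Its dexamethasone mean lay below its vehicle mean, the opposite direction to the first. Its lowest values, 4.28 and 5.51, are those of the batch C arrays, and its other dexamethasone arrays were not below the vehicle arrays. The part of RNA quality in these values was not tested. Among 5 tested genes of other amino acid and peptide carriers, 1 rose and 0 fell (median 0.19), against the same share of 0.569%: Slc15a4, a peptide and histidine carrier of lysosomes, at 7.53, 7.66 and 7.47, then 9.71, 8.87 and 8.86, then 7.98, 8.48 and 8.04 (1.59 ± 0.26, adjusted p = 0.0324). Of 8 tested genes of carrier trafficking and hormone-activated kinases, 0 passed (median 0.15; limma). The medians of these 4 lists in the combination against dexamethasone lay between -0.25 and -0.04. There 0 of their genes passed, where 0.113% of all probe sets did. Against vehicle 0 passed too, but so did 0% of all probe sets, so this count does not set the lists apart. The dexamethasone calls of the related genes depended on the arrays used: over 19 alternatives, tried after the values were seen, Chac1 passed in 13, Cebpb in 10, Sesn1 in 10 and Slc15a4 in 9. None of these 4 passed when any single vehicle array, or dexamethasone replicate 1 or 2, was left out, although in every alternative their differences stayed above 0.

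Markers of other cell types were counted in the same way. With dexamethasone, 1 of 8 fibroblast genes fell (Mfap5, -1.75 ± 0.29, adjusted p = 0.0338), where 0.483% of all probe sets fell. The list median was -1.36. Intensities of the 8 were also summed, after each array was scaled to a mean of 500 with 2% trimmed at each end. The sum ran from 42583 to 65569 with vehicle, 7531 to 27506 with dexamethasone and 22418 to 47670 with both hormones. No gene of the endothelial, macrophage, Schwann cell, adipocyte, smooth muscle, red blood cell or muscle fibre lists passed (medians -0.60, -0.33, -0.15, 0.19, -0.21, -1.11 and -0.04). All 5 neuron markers were too dim to be tested. The part of cell composition in the transporter values was not tested.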

How the data were processed

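The deposited values were linear intensities, a single signal per probe set and array, read from the table the authors deposited. The signal algorithm is not given in the sources used here. Values were put on the log2(intensity + 16) scale and quantile normalized (limma 3.58.1, R 4.3.3). The 57 controls were dropped, as was any probe set whose mean lay under the 40th percentile (5.75). The limma model had 1 mean for each group, used all 9 arrays and was moderated with eBayes, with Benjamini-Hochberg adjustment within each comparison. Unadjusted p-values are from the same fit. The number of arrays limits the precision, and an exact permutation test of 3 arrays against 3 cannot go below p = 0.1.

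A gene was represented by its brightest probe set. The platform annotation gave 1 symbol for 20826 probe sets, several for 436 and none for 9780. Technical batches were set from the deposited scaling and the poly-A spikes. Genes named are the 6 with the lowest p in each comparison and a fixed list of 18 carriers; of each related list, genes past the threshold. Slc7a6os, Slc3a1, Prepl and other members given by value fall outside this rule and were picked after their values were seen, as were the promoters. The members and lists were chosen with earlier results of these data known. The fit was tested on simulated data with planted changes larger than any transporter difference of the main fit, and with no technical batches. It does not show how well smaller changes are found. Alternatives were the scaling, pseudocount, filter, variance model, groups in the fit, replicate number or batch as a block, and arrays left out.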

Additional observations from a re-analysis of the deposited data

How the results depend on the processing

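With dexamethasone against vehicle, the count of transporter probe sets past the threshold was 0, and it was 1 with a pseudocount of 64 or a filter at the 60th percentile (Slc7a6, adjusted p = 0.0325 and 0.0334). It was 2 with an intensity trend and robust variance (Slc7a6 and Slc38a4, adjusted p = 0.0241 and 0.0368) and 2 without technical batch C (Slc7a6 and Slc7a8, adjusted p = 0.0116 and 0.0353). Leaving out each array in turn gave 0 to 2. For both hormones against dexamethasone the count was 0, was 1 without batch C (Slc7a6, adjusted p = 0.047), and ran from 0 to 1 when arrays were left out in turn. For both hormones against vehicle it was 0 in all 19 alternatives. With the replicate block, the count was 0 in each comparison, and for Slc7a6 with dexamethasone the adjusted p was 0.101. The numbers were not taken to pair the arrays: the correlations of deviations of same-numbered arrays ran from -0.20 to 0.59, with a value under 0.1 in each comparison. The arrays that correlated best with their own number were 3 of 6 in dexamethasone against vehicle, 5 of 6 in both hormones against dexamethasone and 2 of 6 in both hormones against vehicle. Over 45 pairs of a named gene and a comparison, 812 of 840 alternative values kept their sign, 10 passed the threshold, and 0 reversed a difference larger than its standard error. Scaling without quantile normalization moved the median of all probe sets by -0.0994 (dexamethasone against vehicle), -0.0135 (both hormones against dexamethasone) and -0.097 (both hormones against vehicle). Over all probe sets with dexamethasone, 196 passed, against 129 with a pseudocount of 4, 414 with 64, 48 with no filter, 469 with the 60th percentile, 510 with the trend, 13 with the replicate block, 460 without batch C, 123 with only the 2 groups, and 1 to 340 with an array left out. For both hormones against dexamethasone, 21 passed, against 5, 102, 0, 83, 149, 0, 39, 0 and 0 to 67 in the same order. The related gene Mfap5 passed in 10 of 19 alternatives. The median standard error of a transporter difference was 0.34 (0.19 to 1.34), and dim probe sets near 5.75 are limited by signal over background. The cause of these changes was not tested.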
